A study of Homo sapiens with 4 samples.

Results

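The genes described here were 8 replacement histone genes, H2AFX, H2AFZ, H2AFV, H2AFY, H2AFJ, H3F3A, H3F3B and CENPA, and 2 regulators of histone mRNA, SLBP and NPAT. They were taken by symbol from the 18806 rows of an expression table of Huh7 cells, a human liver cancer line, and all 10 were found. RNA-seq was made from 4 libraries, 2 of cells with a non-targeting guide (sgNS, genotype labelled WT) and 2 of cells with a guide against METTL16 (sgMETTL16, genotype labelled METTL16 knockdown, called METTL16 KO here). METTL16 is an RNA m6A methyltransferase, and the study asked what its loss does to liver cancer cells. Both groups came from 1 Cas9 single clone, received their guide by lentivirus and were selected with hygromycin B, so that the clone, the virus and the drug are shared and both groups carry the limits of 1 clone. METTL16 itself had 26.3 and 25.1 TPM (transcripts, scaled by their length and by the library total) with sgNS against 17.6 and 18.8 TPM with sgMETTL16. Its log2 fold change was -0.50 (SE 0.062, limma adjusted p 2.4e-05).

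Histones fall into 2 kinds by how their mRNA is made. Replication-dependent histone genes, most of which carry symbols starting with HIST, are transcribed in S phase, and their mRNA ends after a short stem-loop in place of a poly(A) tail. SLBP binds that stem-loop and is needed for its processing and translation, and NPAT is the coactivator that turns these genes on when cells enter S phase. Most replacement histones are made throughout the cell cycle from polyadenylated mRNA and are placed in chromatin outside of replication. Whether this holds for each of the replacement genes here was not tested, and H2AFX also has a stem-loop form. H2A.Z (H2AFZ, H2AFV) marks promoters, macroH2A (H2AFY) marks silent chromatin, H2AX (H2AFX) is phosphorylated at DNA breaks, H3.3 (H3F3A, H3F3B) enters active genes and heterochromatin, and CENP-A (CENPA) marks the centromere.

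The stem-loop is printed first because it separates the 2 kinds of histone mRNA and because 1 of the 10 genes holds it. The motif searched was 6 pairs opening with GG and closing with CC, G-T pairs allowed, around a loop of 4 bases. After GG came 3 bases of C or T and a T, and before CC an A and 3 bases of A or G. The loop could not open with G, had T next, and closed with A or C. In GENCODE transcripts (GRCh38), this motif was found in H2AFX alone among the 10 genes. It was also in 58 of 65 HIST genes matched (89.2%) and in 100 of 19676 genes with a protein-coding transcript (0.508%). The sequences below are DNA, 5′ to 3′ on the gene's strand, with the stem and loop in capitals. HIST1H2AE stands for the usual H2A form and HIST4H4 is the histone gene next to H2AFJ.
H2AFX, chr11:119094893-119094918, minus strand: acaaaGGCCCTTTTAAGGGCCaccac
HIST1H2AE, chr6:26217412-26217437, plus strand: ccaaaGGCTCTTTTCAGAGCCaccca
HIST4H4, chr12:14770720-14770744, minus strand: caaaaGGCCCTTTTCAGGGCCccca
All 3 lie after the coding region. Among the 10 genes and the HIST genes, the H2AFX form was found in 1 gene. The HIST1H2AE form was shared by 13 H2A, 11 H3, 10 H2B and 4 H1 genes, and the HIST4H4 form by 10 H4 genes. The single-exon transcript of H2AFX is 1592 bases long and runs on for 1024 bases past the stem-loop, while that of HIST1H2AE is 517 bases long and ends 5 bases after it. H2AFX is known to be made in both a stem-loop and a polyadenylated form, so it departs from the label of a polyadenylated variant that the other 7 replacement genes carry.

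The start regions are shown because the genes that fell and H2AFJ, which rose, could be compared there. H2AFX and H2AFZ are shown as examples of windows with both a CCAAT box and a TATA box, as H3F3B also has, CENPA for its TTTGAA element, and H2AFJ for its rise. The 250 bases before the RefSeq start (GRCh38.p14) are printed on the gene's strand, and capitals mark these motifs on either strand. The motif CCAAT is the box bound by NF-Y, the motif TTTGAA is the core of an element known from genes expressed in G2 and mitosis, and TATAAA was searched as the TATA box.
H2AFX, chr11:119095466-119095715, minus strand: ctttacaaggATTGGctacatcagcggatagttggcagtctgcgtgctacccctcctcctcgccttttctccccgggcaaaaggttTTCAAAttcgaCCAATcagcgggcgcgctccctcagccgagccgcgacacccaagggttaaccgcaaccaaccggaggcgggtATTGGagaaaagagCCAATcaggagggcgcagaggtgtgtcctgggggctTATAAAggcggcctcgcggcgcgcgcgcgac
H2AFZ, chr4:99950276-99950525, minus strand: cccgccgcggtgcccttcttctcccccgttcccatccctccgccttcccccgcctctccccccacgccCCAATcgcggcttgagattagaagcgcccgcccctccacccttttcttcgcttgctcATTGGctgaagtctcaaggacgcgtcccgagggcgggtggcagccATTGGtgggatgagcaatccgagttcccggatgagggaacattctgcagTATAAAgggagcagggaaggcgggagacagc
CENPA, chr2:26785806-26786055, plus strand: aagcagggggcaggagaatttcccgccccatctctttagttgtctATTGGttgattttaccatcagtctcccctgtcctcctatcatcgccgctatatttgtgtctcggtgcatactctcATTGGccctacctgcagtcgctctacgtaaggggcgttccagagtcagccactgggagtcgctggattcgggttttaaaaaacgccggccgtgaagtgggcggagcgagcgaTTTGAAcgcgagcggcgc
H2AFJ, chr12:14774155-14774404, plus strand: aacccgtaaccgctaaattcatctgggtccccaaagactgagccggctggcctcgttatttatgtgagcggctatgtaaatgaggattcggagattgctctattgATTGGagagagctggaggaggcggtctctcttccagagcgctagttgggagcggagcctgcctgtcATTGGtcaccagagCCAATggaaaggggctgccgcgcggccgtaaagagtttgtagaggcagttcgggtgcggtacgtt
CCAAT was in these windows in 9 of the 10 genes, including 8 of 8 replacement genes, and in 11 of the 14 windows of all 10 genes, against 32% of the 35116 RefSeq windows of the same length. SLBP had none. H2AFX had 4 matches, beginning 240, 153, 81 and 67 bases before the start, and H2AFJ had 3, at 145, 79 and 65, where 2.93% of all windows had 3 or more. TTTGAA was in 2 genes, CENPA at 18 and H2AFX at 164 bases. That was 2 of the 14 windows, near the 13.3% of all windows. TATAAA was in 3 genes, H2AFX, H2AFZ and H3F3B, and in 3 of the 14 windows, against 10.7% of all windows. CCAAT was thus present both in the genes that were lower and in H2AFJ, H2AFY and NPAT, which were higher. A match of these letters is a description, and no binding was measured here.

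**Figure D1:**
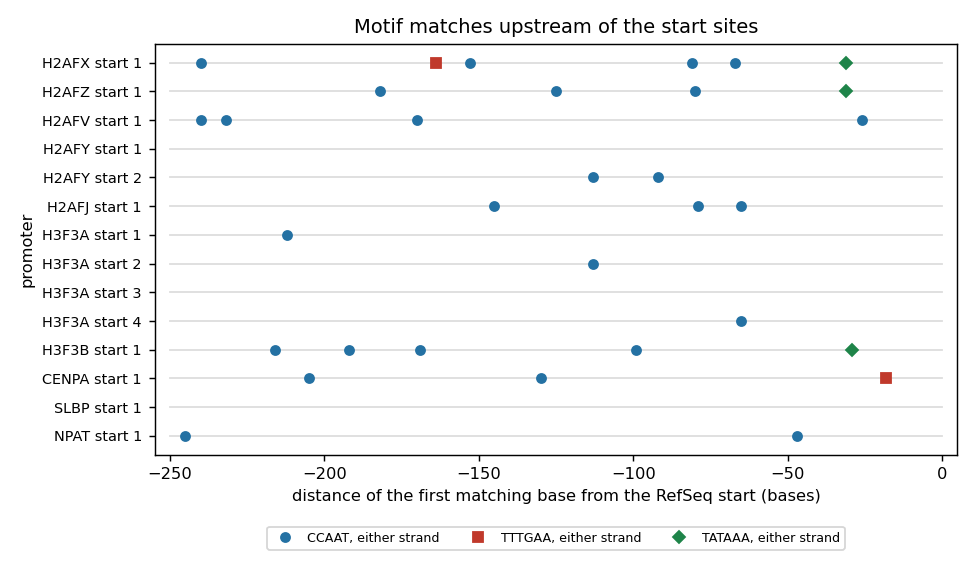
Matches of the CCAAT box (circles), of TTTGAA (squares) and of the TATA box (diamonds) on either strand in the 250 bases before each RefSeq start of the 10 genes. The horizontal axis is the distance of the first matching base from the start in bases, and each row is 1 start, with 4 rows for H3F3A and 2 for H2AFY.

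In METTL16 KO, limma called 6 of the 10 genes lower and 3 higher (adjusted p under 0.05), and SLBP was the 1 that did not pass. The lower genes were H2AFX, H3F3A, CENPA, H3F3B, H2AFZ and H2AFV, with log2 fold changes of -0.51 to -0.13, and the higher ones were H2AFJ, NPAT and H2AFY, with 1.45, 0.22 and 0.12. The 60% that were lower compare with 25.6% of the 11971 genes tested, and the 30% that were higher with 50.1%. The median log2 fold change of the 10 was -0.15, against 0.16 over all genes tested. Values of the groups did not overlap in any of the 10, as in 87.4% of all genes tested. With 2 libraries per group, the p-values set each difference against a spread between libraries that limma largely shares across genes. Whether the replicates were separate infections is not given in the sources used here. Scaling the libraries by the median ratio lowered single values by a like amount, setting the median of all genes at -0.033 and that of the 10 at -0.35. It turned the shares over all genes into 38.9% lower and 33.8% higher. With it the 6 lower genes stayed lower and H2AFJ stayed higher, while H2AFY and NPAT no longer passed and SLBP turned lower.

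**Figure D2:**
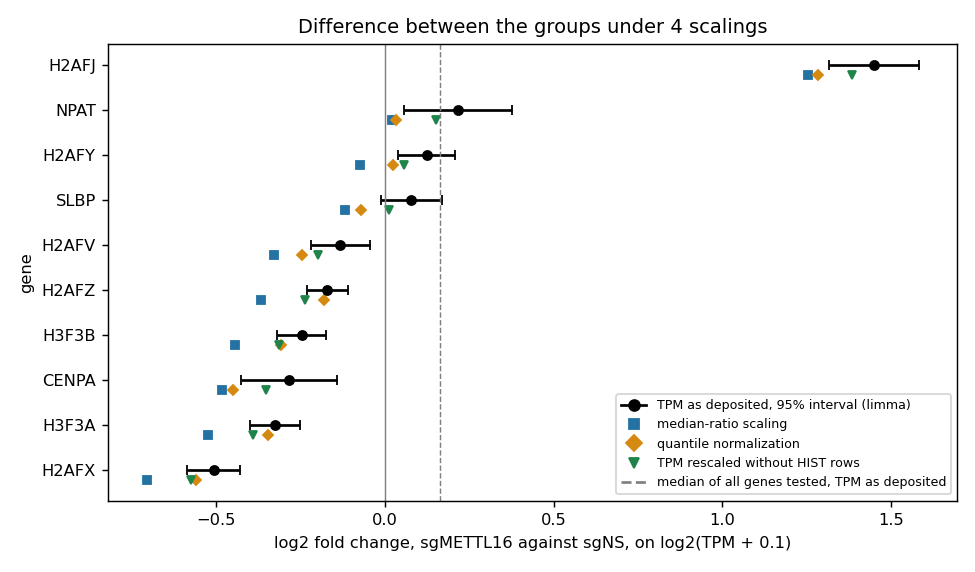
Log2 fold change (METTL16 KO against sgNS, on log2(TPM + 0.1)) of each gene, as black points with the 95% interval from limma for the deposited TPM and as coloured symbols for 3 other scalings; the dashed line is the median of all genes tested. H2AFJ lies apart on the right, and the 6 lower genes stay left of 0 under each scaling. SLBP and H2AFY change side of 0 with the scaling. NPAT moves from 0.22 for the deposited TPM to 0.021 after median-ratio scaling.

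Levels spanned a wide range in sgNS. TPM is a level per transcript length, so genes can be ordered by it, and the order was H2AFZ, H3F3A, H3F3B, H2AFX, H2AFY, H2AFV, SLBP, CENPA, NPAT and H2AFJ. In sgNS the libraries of H2AFY and H2AFV overlapped, as did those of NPAT and H2AFJ, and the other neighbours in this order did not overlap. In METTL16 KO the order differed in that H2AFJ stood above CENPA, in the place after SLBP. The plot of levels by library shows the 2 replicates of a group close together for most genes. In CENPA (sgNS) and in SLBP and NPAT (METTL16 KO) they lay farther apart than the nearest libraries of different groups.

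**Figure D3:**
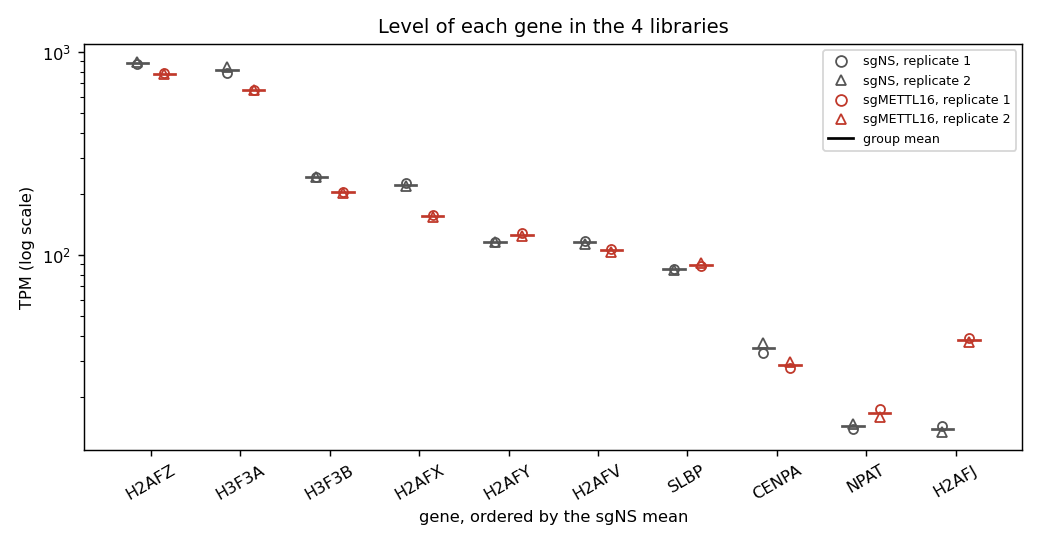
TPM of each gene on a log axis in the 4 libraries (circles for replicate 1, triangles for replicate 2, grey for sgNS and red for METTL16 KO), ordered by the sgNS mean, which is drawn as a line beside the METTL16 KO mean. The groups are apart for each gene, with the widest gap in H2AFJ.

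Among the H2A variants, H2AFX fell most. It is encoded at chr11:119093874-119095465 on the minus strand and was measured at 225 and 218 TPM with sgNS against 157 and 154 TPM with sgMETTL16. Both METTL16 KO libraries were below both sgNS libraries, by a gap far wider than that between replicates. The means were 221 ± 5.3 and 156 ± 1.8 TPM (SD, n = 2 per group), and the log2 fold change was -0.51 (SE 0.035, limma adjusted p 2.8e-07). Per 1000 TPM of the HIST H2A rows, H2AFX stood at 8.23 and 7.94 TPM with sgNS against 8.92 and 8.72 TPM with sgMETTL16. So H2AFX was lower in level but not lower relative to the H2A genes of the HIST clusters, of which 15 of 16 tested were lower, at a median of -0.61 on the log2 scale. The exact permutation test of 2 libraries against 2 cannot go below 0.333, which was its p here.

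H2AFX could also be set beside HIST genes that, like it, have an annotated transcript running on past the stem-loop. This grouping was chosen after values had been seen and is a description. Of the 7 tested HIST genes with a transcript of at least 100 further bases, 4 were lower and 2 higher, with a median log2 fold change of -0.17, against 41 lower and 2 higher of 45 without one, with a median of -0.73. Over all genes tested 25.6% were lower and 50.1% higher. After median-ratio scaling the medians were -0.37 and -0.93. H2AFX lay between the medians at both scales, with -0.51 for the deposited TPM and -0.70 after median-ratio scaling. For the deposited TPM it also lay inside the range of both groups, -0.73 to 0.12 with such a transcript and -6.08 to 0.89 without one, so its place does not tell them apart.

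The H2A.Z genes H2AFZ and H2AFV were both lower, with -0.17 and -0.13 on the log2 scale for the deposited TPM and -0.37 and -0.33 after median-ratio scaling. H2AFZ (chr4:99948086-99950355, minus strand) was the most abundant of the 10, at 872 and 887 TPM with sgNS against 790 and 774 TPM with sgMETTL16. The SE of its log2 fold change was 0.028 (limma adjusted p 0.0002). H2AFV (chr7:44826791-44848087, minus strand) had 117 and 114 TPM with sgNS against 107 and 104 TPM with sgMETTL16, with an SE of 0.039 (limma adjusted p 0.01). The METTL16 KO libraries were below the sgNS libraries in both genes, but the H2AFV call was lost without METTL16 KO replicate 2 (limma adjusted p 0.12) and in limma without a trend (0.059). H2AFZ made up 88.2% and 88.6% of the pair's TPM in sgNS and 88.1% and 88.2% in METTL16 KO, ranges that overlapped (two-sided exact permutation p of 0.667). RefSeq lists 7 pseudogenes named after H2AFZ and 1 after H2AFV, so their values are uncertain to the extent that reads were shared.

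H2AFY, which encodes macroH2A1, changed direction with the scaling. It lies at chr5:135334381-135399914 on the minus strand and had 116 and 115 TPM with sgNS against 128 and 124 TPM with sgMETTL16. Its log2 fold change was 0.12 (SE 0.038, limma adjusted p 0.012), below the median of all genes. It was -0.073 after median-ratio scaling (limma adjusted p 0.1), and the call was also lost without METTL16 KO replicate 1 (0.14). Its paralog H2AFY2 had 11.8 and 10.8 TPM with sgNS against 10.6 TPM in both METTL16 KO libraries, and -0.10 on the log2 scale did not pass (limma adjusted p 0.27). H2AFY2 passed as lower after median-ratio scaling, with -0.29 (0.0052), and after quantile normalization, with -0.26 (0.01).

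H2AFJ changed most of the 10 and was the only one of them past the second threshold, an unadjusted p under 0.01 with a log2 fold change of at least 1, which 7.69% of all genes tested passed upwards and 3.75% downwards with the sign turned. H2A.J is a replacement H2A known to accumulate in senescent cells. The gene (chr12:14774405-14778002, plus strand) had 14.3 and 13.5 TPM with sgNS against 39.0 and 37.3 TPM with sgMETTL16, so that the groups lay far apart and the replicates close together. The METTL16 KO libraries were 2.73-fold higher, or 1.45 on the log2 scale (SE 0.060, limma adjusted p 4.9e-09), and the value lay between 1.25 and 1.49 under the 14 alternatives run for it. Per 1000 TPM of H2AFX, H2AFJ stood at 63.6 and 62.1 TPM with sgNS against 248 and 242 TPM with sgMETTL16. The exact permutation p of this ratio was 0.333, the smallest that 2 against 2 allows.

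The nearest gene to H2AFJ is HIST4H4, 3274 bases away on the opposite strand, whose stem-loop is printed above. HIST4H4 had 667 and 720 TPM with sgNS against 663 and 672 TPM with sgMETTL16, so its groups overlapped. It had -0.05 on the log2 scale (limma adjusted p 0.2) and -0.25 after median-ratio scaling (0.00025). The 3 genes whose centred values over the 4 libraries lay nearest to those of H2AFJ were MYD88, ZNF189 and TBC1D8, at Euclidean distances of 0.022, 0.035 and 0.048 on log2(TPM + 0.1). MYD88, an adaptor of Toll-like receptors, had 15.9 and 15.4 TPM with sgNS against 44.1 and 42.1 TPM with sgMETTL16. With 4 libraries such likeness describes the group difference and the small gap between replicates.

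The H3 variants were all lower, and after median-ratio scaling H3F3A, H3F3B and CENPA had log2 fold changes of -0.52, -0.44 and -0.48. H3F3A and H3F3B encode the same H3.3 protein from different loci. H3F3A (chr1:226061851-226072019, plus strand) had 789 and 841 TPM with sgNS against 650 TPM in both METTL16 KO libraries, or -0.33 on the log2 scale (SE 0.033, limma adjusted p 5.5e-06). H3F3B (chr17:75776434-75785893, minus strand) had 241 TPM in both sgNS libraries against 205 and 201 TPM with sgMETTL16, or -0.25 on the log2 scale (SE 0.033, limma adjusted p 4.5e-05). The METTL16 KO libraries were below the sgNS libraries by more than the replicate gap in both genes. H3F3A supplied 76.6% and 77.7% of the pair's TPM in sgNS and 76.0% and 76.4% in METTL16 KO, a difference of -0.98 percentage points (two-sided exact permutation p of 0.333, the smallest possible). RefSeq lists 8 pseudogenes under the H3.3 names, and the UNK gene, which rose with a log2 fold change of 0.44, overlaps H3F3B on the opposite strand. The library kit keeps strand, but whether counting used it is not given in the sources used here.

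CENPA, at chr2:26764289-26801067 on the plus strand, had 33.0 and 36.9 TPM with sgNS against 27.8 and 29.6 TPM with sgMETTL16. The groups did not overlap, but the sgNS replicates lay farther apart than the nearest libraries of different groups. The log2 fold change was -0.28 (SE 0.064, limma adjusted p 0.002). The annotated gene overlaps SLC35F6 on the same strand, and that gene went the other way, from 28.7 and 26.1 TPM with sgNS up to 39.9 and 43.5 TPM with sgMETTL16, so reads in the shared stretch cannot be assigned from the table.

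Of the regulators, SLBP did not pass and NPAT passed in part of the settings. SLBP (chr4:1692731-1712344, minus strand) had 85.1 and 84.8 TPM with sgNS against 88.1 and 91.4 TPM with sgMETTL16. Its log2 fold change was 0.08, with a 95% interval of -0.011 to 0.17 that includes 0 (limma adjusted p 0.098), and -0.12 after median-ratio scaling (0.025). The libraries of the groups did not overlap, yet the direction of SLBP rests on the scaling. NPAT (chr11:108157215-108222638, minus strand) had 14.0 and 14.7 TPM with sgNS against 17.5 and 15.9 TPM with sgMETTL16, or 0.22 on the log2 scale (SE 0.072, limma adjusted p 0.018). After median-ratio scaling it was 0.021 (0.8), and the call was lost without sgNS replicate 1 (0.08) and without METTL16 KO replicate 1 (0.18). NPAT lies head to head with ATM, the kinase that phosphorylates H2AX, which begins 406 bases away on the opposite strand. ATM went from 22.1 and 21.1 TPM with sgNS down to 13.6 and 12.6 TPM with sgMETTL16, or -0.72 on the log2 scale (limma adjusted p 2.9e-06), so these neighbours moved in opposite directions at the deposited scale.

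Summed over the 8 replacement genes, TPM was 2408 and 2466 in sgNS and 2105 and 2074 in METTL16 KO, a log2 ratio of -0.22. The HIST rows summed to 11.04% and 11.03% of all TPM in sgNS and to 6.81% and 6.93% in METTL16 KO, a log2 ratio of -0.68. Within the TPM of these 8 genes plus the HIST rows, the replacement genes therefore held a larger share in METTL16 KO, although their own sum was lower. H1F0, H1FX and H2AFY2 were not part of that share. That share was 2.13% and 2.19% in sgNS and 2.998% and 2.906% in METTL16 KO, a difference of 0.79 percentage points. For the H2A variants beside the HIST H2A rows the share was 4.68% and 4.69% in sgNS and 6.49% and 6.31% in METTL16 KO. For H3F3A and H3F3B beside the HIST H3 rows it was 4.31% and 4.62% in sgNS and 6.16% and 5.97% in METTL16 KO. Each of these shares had an exact permutation p of 0.333, which is the smallest the design allows. Without H2AFX and H2AFJ the difference was 0.73 points. A share within a library does not depend on how libraries are scaled against each other, but most HIST mRNA has no poly(A) tail and the labels name both a Ribozero description and an mRNA kit, so the absolute share depends on how such RNA was captured, which was not tested.

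**Figure D4:**
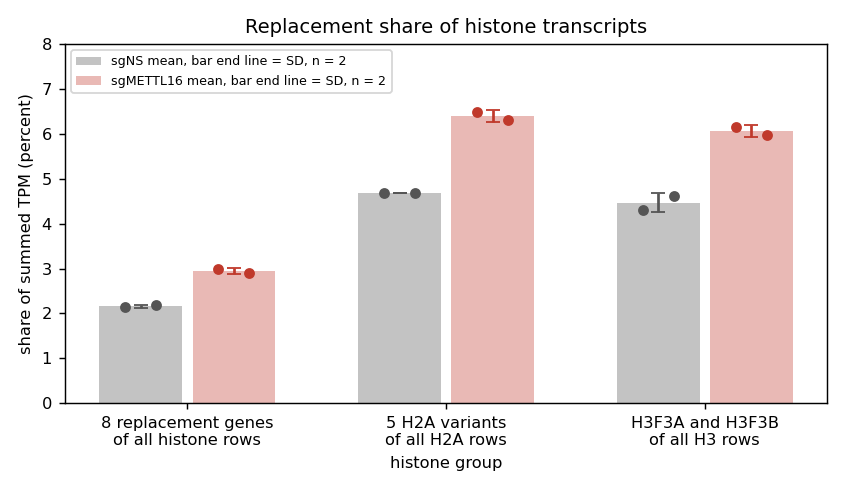
Replacement share of summed TPM in percent. The first pair sets the 8 replacement genes beside the HIST rows. The others set the 5 H2A variants, and H3F3A with H3F3B, beside the HIST rows of their family. Axis labels call these all rows, but H1F0, H1FX and H2AFY2 were left out. Bars are means, lines the SD and points the 2 libraries of each group. The METTL16 KO points lie above the sgNS points in each of the 3 pairs.

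The other replacement and variant histones in the table were mostly silent. Of 9 further genes 3 were tested, while H3F3C, H2AFB1, H2AFB2, H2AFB3, H2BFM and H2BFWT were listed at 0.12 TPM or less in each library. H1F0, the replacement linker histone H1.0, was at 342 and 340 TPM in sgNS and rose to 438 and 446 TPM, by 0.38 on the log2 scale (limma adjusted p 7.7e-07). H1FX, another linker histone, was at 258 and 263 TPM and fell to 182 and 190 TPM, with -0.49 on that scale (limma adjusted p 3.9e-07).

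Of 24 genes that make, process or degrade histone mRNA, SLBP and NPAT among them, limma called 13 higher and 1 lower, and 10 did not pass. The 54.2% that were higher lay near the 50.1% of all genes tested, and the median of 0.17 near the 0.16 of all genes, while 4.17% were lower against 25.6% of all. After median-ratio scaling 10 were lower and 6 higher, against 38.9% and 33.8% of all genes. ZNF473, the U7 snRNP partner known as ZFP100, was at 14.2 and 13.8 TPM in sgNS and rose to 30.6 and 31.6 TPM, by 1.15 on the log2 scale (limma adjusted p 2.6e-08). HINFP, which activates H4 genes together with NPAT, rose from 14.3 and 15.1 TPM to 23.6 TPM in both METTL16 KO libraries. SYMPK, the scaffold of the 3′ end cleavage complex, was the gene that fell, from 43.4 and 35.8 TPM to 26.5 and 25.3 TPM, with -0.61 on that scale (limma adjusted p 4e-05).

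Chaperones were read beside the histones they carry. Of 7 tested H3.3 chaperone genes 5 were higher and 2 lower (71.4% and 28.6%, against 50.1% and 25.6% of all genes), with a median of 0.18 near that of all genes. After median-ratio scaling 2 were higher and 2 lower (against 33.8% and 38.9% of all genes), with a median of -0.019. CABIN1, a subunit of the HIRA complex, had a log2 fold change of 0.87 and HIRA 0.31, while ATRX fell by 0.40 and ASF1A fell by 0.21. H3F3A and H3F3B were thus lower where CABIN1 and HIRA were higher, but ATRX and ASF1A were lower too. After median-ratio scaling CABIN1 had 0.67 (limma adjusted p 1.5e-05), while HIRA had 0.11 and passed narrowly (0.047). For CENP-A deposition 4 of 6 genes were higher and 1 lower (66.7% and 16.7%, against 50.1% and 25.6% of all genes). However, after median-ratio scaling 0 were higher and 1 lower, against 33.8% and 38.9% of all genes. HJURP, the chaperone of CENP-A, had 33.6 and 35.2 TPM with sgNS against 42.6 and 39.0 TPM with sgMETTL16 (log2 fold change 0.24, limma adjusted p 0.0026), but 0.048 after median-ratio scaling (0.47). CENPN had 0.28, and 0.080 after median-ratio scaling (limma adjusted p 0.086), while MIS18A fell by 0.15.

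For exchange of H2A.Z, 5 of 11 genes were higher, 3 lower and 3 did not pass, shares of 45.5% and 27.3% that lay near the 50.1% and 25.6% of all genes. After median-ratio scaling 2 were higher and 5 lower, against 33.8% and 38.9% of all genes. The ATPases of the loading complexes were higher, EP400 with a log2 fold change of 0.57 and SRCAP with 0.55, while DMAP1, a subunit of both, fell by 0.77 and ANP32E, which removes H2A.Z, fell by 0.48. Of 7 tested chaperones that act in replication or on histones in general, 5 were lower (71.4%, against 25.6% of all genes), 0 higher (against 50.1%) and 2 did not pass, with a median of -0.14. After median-ratio scaling 7 were lower, against 38.9% of all genes. Both named subunits of CAF-1, which deposits H3 behind the fork, fell, CHAF1B by 0.78 and CHAF1A by 0.26 on the log2 scale. In H2AX signalling 2 of 7 genes were higher, 2 lower and 3 did not pass, or 28.6% each way, against 50.1% higher and 25.6% lower over all genes. After median-ratio scaling 1 was higher and 4 lower, against 33.8% and 38.9% of all genes. RNF8, a ubiquitin ligase that MDC1 brings to phosphorylated H2AX, had a log2 fold change of 0.68, and MDC1 itself had 0.13 at the deposited scale and -0.064 after median-ratio scaling, while ATM fell by 0.72 and RNF168 fell by 0.20.

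**Figure D5:**
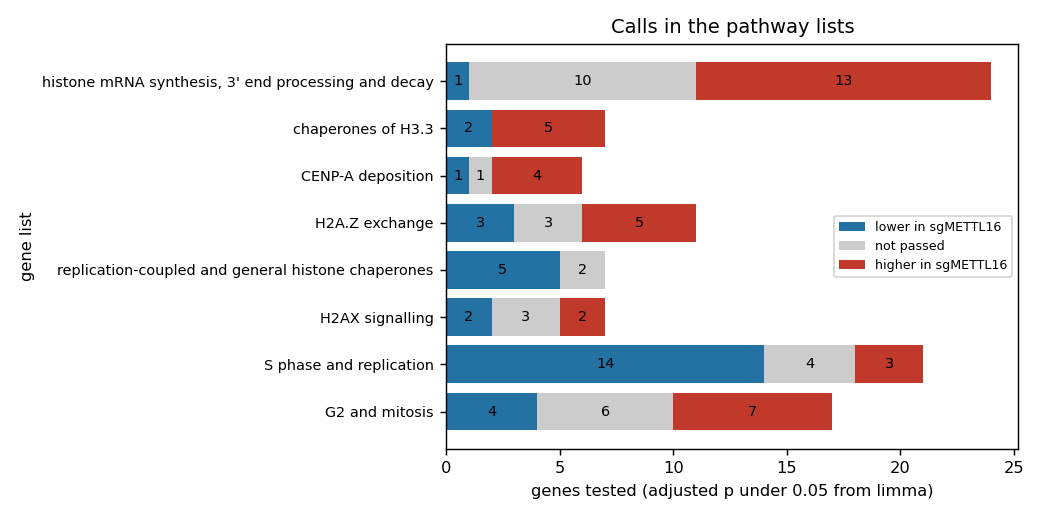
Genes tested in each of 8 lists, split into lower in METTL16 KO (blue), not passed (grey) and higher (red) at an adjusted p under 0.05 in limma; the horizontal axis is the number of genes. The list of S phase and replication is lower in 14 of 21 genes, and the list of histone mRNA synthesis and decay is higher in 13 of 24, where 50.1% of all genes were higher.

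Cell cycle genes were read beside these values. Of 21 S phase and replication genes 14 were lower (66.7%, against 25.6% of all genes), 3 higher (14.3%, against 50.1%) and 4 did not pass, at a median of -0.26 on the log2 scale. Of 17 G2 and mitosis genes 4 were lower (23.5%), 7 higher (41.2%) and 6 did not pass, with a median of 0.069. MCM6 and MCM4, subunits of the replicative helicase, fell by 0.97 and by 0.87, while MCM3 had 0.39 and CCNE2, which encodes cyclin E2, had 1.10. CENPE and CENPF, of the kinetochore, had 0.81 and 0.52, while BUB1 fell by 0.28 and AURKB fell by 0.27. After median-ratio scaling 10 of the 17 G2 and mitosis genes were lower and 3 higher, and 18 of the 21 S phase genes were lower and 2 higher. Over all genes tested that scaling gave 38.9% lower and 33.8% higher. In bulk libraries fewer cells in a phase and less RNA per cell cannot be told apart, and the part of cell cycle in the values of H2AFX, CENPA, SLBP and NPAT was not tested.

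The libraries held 11723 to 12074 genes at 1 TPM or more, and Pearson's r across genes was 0.997 between replicates and 0.943 to 0.945 between groups, across genes that are not independent. All 9 hepatocyte and hepatoma markers were expressed, with a summed 16063 and 16227 TPM with sgNS and 30137 and 29699 TPM with sgMETTL16. Of these 8 were higher and APOB was lower (88.9% and 11.1%, against 50.1% and 25.6% of all genes). After median-ratio scaling 7 were higher and 1 lower, against 33.8% and 38.9% of all genes. AFP had the largest TPM difference of the 9, from 1737 and 1793 TPM with sgNS to 10387 and 10197 TPM with sgMETTL16. Of 6 leukocyte, endothelial and stromal markers PTPRC, VWF, COL1A1 and DCN were under 1 TPM in each library, CD68 and PECAM1 were between 2.70 and 8.86 TPM, and the sum was 8.88 and 7.82 TPM in sgNS and 13.3 and 11.95 TPM in METTL16 KO. The part of the marker difference in the values of the histone genes was not tested.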

How the data were processed

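The authors mapped trimmed reads with STAR to GRCh38 and quantified genes with RSEM. The deposited values are TPM, since each column has the same total of 1000000, although the study's methods name another per-length unit. No counts were given, so depth is unknown. Symbols are those of the table. Values were tested on log2(TPM + 0.1) for 11971 genes (mean over libraries not below 1 TPM), with limma 3.58.1 (empirical Bayes with trend, R 4.3.3) and Benjamini-Hochberg adjustment over all of them. The fold change understates that of low genes. Sums and shares were compared by exact permutation. The genes and lists were chosen with earlier results of these data known. Named genes were the 10, METTL16, up to 2 with the largest change each way past the threshold in each list, and the 3 nearest to the member with the largest change. The limma step was tested on simulated data. Alternatives were pseudocount, filter, scaling, model, replicate block and leaving out each library. Gene positions are from GENCODE v44 and start windows from RefSeq. DAXX and NAP1L4 were not analysed here.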

Additional observations from a re-analysis of the deposited data

How the results depend on the processing

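H2AFX, H2AFZ, H2AFJ, H3F3A and H3F3B kept their direction and call in all 14 alternatives run for each, and 121 of 140 alternatives over the 10 genes did so. The filter, replicate block, no-trend and unmoderated settings leave the log2 fold change as it is, so only the call could move there. H2AFY had -0.073 after median-ratio scaling, 0.026 after quantile normalization, 0.058 without the HIST rows, and 0.12 in limma without trend and in the unmoderated model, and passed in none of these. SLBP had -0.12 (passed) and -0.069 (not passed) after median-ratio scaling and quantile normalization. NPAT did not pass with all genes above 0 (0.22), median-ratio scaling (0.021), quantile normalization (0.033), no HIST rows (0.15) or the unmoderated model (0.22). H2AFV (-0.13) did not pass in limma without trend or unmoderated, nor CENPA (-0.28) unmoderated. The cause was not tested.

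Leaving out 1 library gave -0.15 to -0.11 for H2AFV, 0.097 to 0.15 for H2AFY, 0.15 to 0.28 for NPAT, -0.36 to -0.20 for CENPA and 0.053 to 0.11 for SLBP. The number of higher genes was 1 after median-ratio scaling, after quantile normalization, without the HIST rows and in the unmoderated model, and 1 to 3 without 1 library, with 1 when METTL16 KO replicate 1 was left out. The log2 ratio of the summed replacement TPM was -0.42 after median-ratio scaling and -0.29 without the HIST rows. The difference in share was 0.73 points without H2AFX and H2AFJ, and 0.87 points with 1 of each pair of identical HIST rows left out, which was chosen after seeing the data.

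With the replicate number as a block, H2AFX had -0.51 and NPAT an adjusted p of 0.0086 in limma, SLBP 0.14, and no call changed. This fit leaves 1 residual degree of freedom per gene. It gave H2AFX a limma adjusted p of 3.8e-31, against 2.8e-07 without the block, so its p-values are a weak check. The correlation of deviations between same-numbered libraries was -0.044, so the numbers give no sign of pairing. With 2 libraries per group the spread of 1 gene rests largely on what limma shares across genes.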
